A study of Mus musculus with 8 samples.

Results

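Fatty acid oxidation and peroxisome genes were examined in primary mouse hepatocytes given metformin, a biguanide that lowers blood glucose. Their probes were picked by gene symbol: the acyl-CoA dehydrogenases (Acad), thiolases (Acaa), numbered acyl-CoA thioesterases (Acot), peroxisomal oxidases (Acox), hydroxyacyl-CoA dehydrogenases (Hadh), electron transfer flavoprotein genes (Etf), auxiliary isomerases and reductases (Eci, Decr) and peroxins (Pex), with Cpt2, Slc25a20, Ehhadh, Hsd17b4 and Crat added by name. The rule uses symbols and no values, although it was written with earlier results of these data known. Of 16304 probes 99 met the rule, and they stood for 56 of 10944 genes: 24 mitochondrial members, 14 peroxisomal enzymes, 13 peroxins, and 5 members of the cytosol or of both organelles (Acot1, Acot7, Acot11, Acot12 and Crat). Hadha, Crot and Vnn1 were not analysed here.

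Metformin at 500 µM was given to 4 samples of hepatocytes, and another 4 samples were labelled control, with a time of 24 h named for all 8. Every sample held collagenase-isolated liver cells of male C57Bl6/J mice, and 1 bead array was read per sample. The labels do not say whether samples came from different animals, isolations or cultures, so p-values measure only how far these 8 samples spread, and that spread may be technical. All values are log2 intensities, so a difference of 1 is a doubling of brightness, and the middle probe of every array stood at 6.48.

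Mitochondria shorten fatty acids in a repeating spiral. Carnitine carries the long acyl chains across the inner membrane, acyl-CoA dehydrogenases take out electrons that pass through the electron transfer flavoprotein to the respiratory chain, and a hydratase, a dehydrogenase and a thiolase then release acetyl-CoA. Peroxisomes run a related spiral for very long and branched chains, in which an oxidase replaces the dehydrogenase. Peroxins build these organelles and import their enzymes, and in liver the nuclear receptor PPARA is a major activator of many of the oxidation genes.

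Few of these transcripts passed the test for a change with metformin. Of the 56 members 1, Pex3, rose past the threshold (limma, adjusted p under 0.05 over all genes), where 6.76% of all genes passed in either direction and 3.32% were higher. No member fell past it, against 3.44% of all genes, and 16 members had an unadjusted p under 0.05 against 23.8% of all genes. The median log2 fold change was 0.036 over the members and 0.010 over all genes, and the median of its absolute size was 0.214 and 0.203. For 48 of the 56 members the 95% interval of the change lay within 1 log2 unit of 0, and for 18 within 0.5, where 87.3% and 34.9% of all genes did so. The 4 metformin arrays lay wholly above the 4 control arrays for 5 members and wholly below for 2, that is 7 members without overlap, against 7.70%, 7.57% and 15.3% of all genes. Samples of equal replicate number were treated as pairs from the values of these same arrays, since no label explains the numbering. A fit with that number as a block called 3 members, Pex3 and Acot12 higher and Etfbkmt lower, against 8.49% of all genes (4.41% higher and 4.08% lower).

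**Figure D1:**
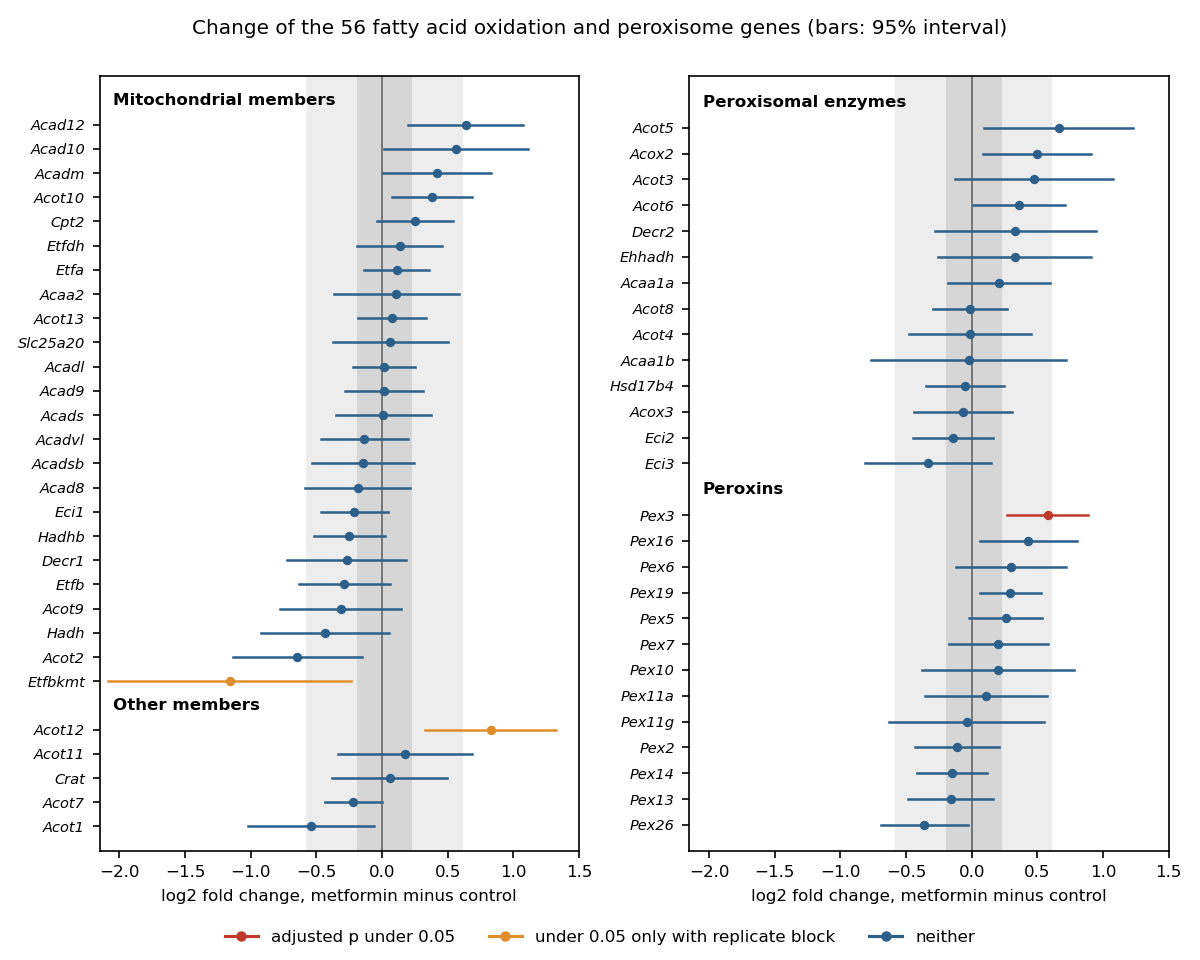
Log2 fold change (metformin minus control) of the 56 members on the horizontal axis, with points for the estimates and bars for limma's 95% intervals, n = 4 arrays per group. The dark and light grey bands hold the changes of the middle genes of the whole array, from -0.19 to 0.22 (25th to 75th percentile) and from -0.57 to 0.61 (5th to 95th percentile). Pex3 alone passed the threshold, and Etfbkmt and Acot12 passed with the replicate block.

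The carnitine shuttle showed no change past the threshold. Cpt2, the inner-membrane carnitine palmitoyltransferase, read 8.76, 8.43, 8.36 and 8.22 in metformin samples and 8.19, 8.19, 8.22 and 8.16 in control samples. Every metformin array stood above every control array, although metformin replicate 4 did so by a narrow margin. The change was 0.25 ± 0.13 (standard error, as for every change below; limma adjusted p = 0.277; 95% interval -0.039 to 0.54). The exact two-sided permutation test of Cpt2 gave p = 0.0286, which is the smallest value that 4 samples against 4 allow. Every gene without overlap gets this value, and 15.3% of all genes had none. Slc25a20, the carrier that exchanges acylcarnitine for carnitine, averaged 9.44 ± 0.23 in metformin samples and 9.38 ± 0.37 in control samples (SD, n = 4). Its dimmer probe moved the other way, with a change of -0.35. Crat, the carnitine acetyltransferase of mitochondria and peroxisomes, differed by 0.057 ± 0.20.

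The straight-chain acyl-CoA dehydrogenases, which open the mitochondrial spiral, were also without a call. Acadm, the medium-chain enzyme and a textbook PPARA target, read 11.91, 11.44, 11.87 and 11.47 in metformin samples and 11.66, 10.98, 11.32 and 11.05 in control samples. The groups overlapped, but each metformin sample was above the control sample of its own number, by 0.25 to 0.55. The change was 0.42 ± 0.18 (limma adjusted p = 0.202, and 0.0675 with the replicate block), and its other probe gave 0.31. Acadl, the long-chain enzyme, differed by 0.014 ± 0.10, with dimmer probes at up to 0.43. Acads, the short-chain enzyme, differed by 0.0099 ± 0.16, and Acadvl, the very-long-chain enzyme, by -0.14 ± 0.15. For these 3 genes the interval of the change lay within 0.5 of 0.

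Among the other dehydrogenases, Acad12 and its chromosome 5 neighbour Acad10 had the highest changes, and both averaged below the array median. Acad12 read 5.94, 5.85, 5.93 and 5.40 with metformin and 5.65, 4.96, 4.91 and 5.06 in control samples. It was higher in all 4 numbered pairs, yet the groups overlapped through control replicate 1. The change of 0.64 ± 0.19 had an adjusted p = 0.0823 in limma, 0.0542 with the block and 0.0260 without control replicate 1. Of the 8 fits without 1 array only that 1 passed, and the adjusted p of Acad12 ran up to 0.203. The brightest probe of Acad10 differed by 0.56 ± 0.25, while another of its probes gave -0.039. Acad9, which also helps to assemble respiratory complex I, differed by 0.012 ± 0.13, and the branched-chain enzymes Acad8 and Acadsb by -0.19 ± 0.18 and -0.14 ± 0.17. The probes of Acad8 ran from -0.57 to 0.10.

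The electron transfer genes held the largest difference of any member. Etfbkmt, the methyltransferase that modifies lysines of the flavoprotein's beta subunit, read 7.18, 5.63, 5.67 and 5.79 in metformin samples and 8.11, 6.56, 6.79 and 7.44 in control samples. Replicate 1 was the highest of its group in both conditions, so that the groups overlapped, while each metformin sample was lower than the control of its number, with differences of -1.65 to -0.93. The change was -1.16 ± 0.41 (limma adjusted p = 0.124). With the replicate block the standard error was 0.155, the adjusted p was 0.0119 and Etfbkmt fell 2.24-fold. Etfa and Etfb, the subunits of the flavoprotein itself, differed by 0.11 ± 0.11 and -0.29 ± 0.15. Etfdh, which hands the electrons to ubiquinone, differed by 0.14 ± 0.14. None of these 3 genes passed with the block.

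Among the members of the later steps of the mitochondrial spiral differences were mostly negative, again without a call. Echs1, a hydratase that the symbol rule does not cover, went the other way, by 0.43 ± 0.12 (limma adjusted p = 0.0687). It was chosen after its values were seen. Hadhb, the thiolase subunit of the trifunctional protein, read 10.05, 10.45, 10.13 and 10.23 in metformin samples and 10.55, 10.36, 10.46 and 10.48 in control samples. Metformin replicate 2 reached the control range, and the other 3 metformin samples lay below it. The change was -0.25 ± 0.12 (limma adjusted p = 0.243, and 0.291 with the block). Hadh, the dehydrogenase for medium and short chains, differed by -0.43 ± 0.22 and was lower in all 4 numbered pairs. Acaa2, the mitochondrial thiolase, differed by 0.11 ± 0.21, and its 4 probes gave 0.024 to 0.27. The auxiliary enzymes of unsaturated chains, the isomerase Eci1 and the dienoyl-CoA reductase Decr1, differed by -0.21 ± 0.11 and -0.27 ± 0.20.

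Thioesterases, which split acyl-CoA into free fatty acid and coenzyme A, went in both directions. Of the mitochondrial ones, Acot2 read 4.52, 4.55, 4.44 and 4.57 with metformin and 4.72, 4.78, 5.74 and 5.42 in control samples. All metformin arrays were below all control arrays, near the lower end of the scale at 4.16. The change was -0.64 ± 0.22 (limma adjusted p = 0.109, and 0.0876 with the block), but its other probes gave changes of up to 0.23. Acot1, the cytosolic enzyme of the same gene cluster on chromosome 12 and another textbook PPARA target, differed by -0.54 ± 0.21 (adjusted p = 0.163, and 0.0518 with the block). Acot1 to Acot6 are related copies, similar to differing degrees, whose probes may share signal, so that they are uncertain as single genes. Acot10, a copy of Acot9 with the same uncertainty, differed by 0.38 ± 0.14, against -0.31 ± 0.21 for Acot9. Acot13 differed by 0.078 ± 0.11.

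Acot12, a cytosolic enzyme that hydrolyses acetyl-CoA, had the highest change of the 56 members. It read 5.92, 5.76, 6.07 and 5.57 in metformin samples and 5.03, 4.36, 5.47 and 5.15 in control samples. Every metformin array was above every control array. The change was 0.83 ± 0.22, or 1.77-fold, with a limma adjusted p = 0.0573, and with the replicate block Acot12 rose at an adjusted p = 0.0341. Without 1 array the adjusted p of Acot12 was 0.0578 to 0.160. Acot7 was 11.44 ± 0.031 in metformin samples and 11.66 ± 0.069 in control samples (SD, n = 4), with no overlap. Its change of -0.22 ± 0.097 did not pass (limma adjusted p = 0.210, and 0.266 with the block). The probes of Acot7 ran from -0.25 to 0.042. Acot11 differed by 0.18 ± 0.23.

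Limma called 0 of the 24 mitochondrial members, against 6.76% of all genes. The unadjusted p was under 0.05 for 4 with higher and 2 with lower values, where 12.7% and 11.1% of all genes had such a p. Their median change was 0.011, and 13 had positive values, where 51.2% of all genes did.

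The 14 peroxisomal enzymes had a median change of 0.098, and 0 of them passed in limma or with the block, against 6.76% and 8.49% of all genes. The unadjusted p was under 0.05 for 3 of them, against 23.8% of all genes. Acox2, the oxidase of branched chains and bile acid intermediates, read 9.11, 9.005, 9.11 and 8.63 in metformin samples and 8.85, 8.04, 8.51 and 8.47 in control samples. It was higher in each numbered pair, with overlap through metformin replicate 4 and control replicate 1. The change was 0.50 ± 0.18 (limma adjusted p = 0.139, and 0.0949 with the block). Acox3, a related oxidase, differed by -0.065 ± 0.17. The bifunctional enzymes Ehhadh and Hsd17b4, which carry out the middle steps, differed by 0.33 ± 0.26 and -0.051 ± 0.13. The thiolases Acaa1a and Acaa1b differed by 0.21 ± 0.17 and -0.023 ± 0.33, and these near-identical neighbours on chromosome 9 are uncertain as single genes. Acaa1b and Ehhadh, both well-known PPARA targets in mouse liver, had wide intervals, from -0.77 to 0.72 and from -0.26 to 0.91.

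The auxiliary peroxisomal enzymes differed by 0.33 ± 0.27 for Decr2, -0.14 ± 0.14 for Eci2 and -0.33 ± 0.21 for Eci3. Among the peroxisomal thioesterases Acot5 read 4.67, 5.66, 5.64 and 4.645 in metformin samples and 4.30, 4.40, 4.62 and 4.643 in control samples. All metformin values were above the control ones, but replicate 4 of both groups stood within 0.0020 of each other. The change of 0.66 ± 0.25 had a limma adjusted p = 0.149. Acot3 and Acot6 had values of 0.48 ± 0.27 and 0.36 ± 0.16, and Acot4 and Acot8 of -0.013 ± 0.21 and -0.011 ± 0.13.

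Peroxins gave the call that held in the fits both with and without the block. Pex3, the membrane anchor that receives newly made peroxisomal membrane proteins, read 8.36, 8.23, 8.60 and 8.47 in metformin samples and 8.12, 7.64, 7.82 and 7.76 in control samples. All 4 metformin arrays were above all 4 control arrays, and the smallest gap between numbered samples, 0.23, was that of replicate 1. Pex3 rose by 0.58 ± 0.14, or 1.49-fold (limma adjusted p = 0.0392, and 0.0436 with the replicate block). Its other probe gave 0.22, and with the mean of both probes it did not pass. Of the 8 fits that left out 1 array, Pex3 passed without control replicate 1 (adjusted p = 0.0233), and in the other 7 its adjusted p was up to 0.120.

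The partners of Pex3 in membrane assembly also had higher values, without passing. Pex19, the soluble receptor that delivers membrane proteins to Pex3, read 10.11, 10.14, 10.26 and 10.23 in metformin samples and 10.01, 9.82, 9.89 and 9.83 in control samples. The groups did not overlap, and the change was 0.30 ± 0.10, with 0.047 at its other probe. For Pex19 the limma adjusted p was 0.116, and 0.162 with the block. Pex16, which helps to bring Pex3 to the membrane, read 6.97, 6.95, 7.11 and 6.60 in metformin samples and 6.48, 6.11, 6.76 and 6.56 in control samples. These groups overlapped, since metformin replicate 4 lay below control replicate 3, and the change was 0.43 ± 0.16 (adjusted p = 0.151). The exact two-sided permutation test gave p = 0.0286 for Pex3 and Pex19 and p = 0.0571 for Pex16. The value 0.0286 restates the lack of overlap, which 15.3% of all genes showed, and is not adjusted.

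Import and export peroxins went in both directions, and none passed. Pex5, the receptor for most matrix enzymes, differed by 0.26 ± 0.12 and was higher in all 4 numbered pairs, although its probes ran from -0.19 to 0.43. Pex7, the receptor that carries the peroxisomal thiolases, differed by 0.20 ± 0.17. The docking proteins Pex13 and Pex14 differed by -0.16 ± 0.15 and -0.15 ± 0.12. Of the proteins that recycle the receptors, the ATPase Pex6 differed by 0.30 ± 0.19, its membrane anchor Pex26 by -0.36 ± 0.15 (limma adjusted p = 0.173), and the ligases Pex2 and Pex10 by -0.11 ± 0.14 and 0.20 ± 0.26. Pex11a and Pex11g, which act in peroxisome division, differed by 0.11 ± 0.21 and -0.037 ± 0.26. Over the 13 peroxins the median change was 0.20 and 8 had positive values, where 51.2% of all genes did.

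**Figure D2:**
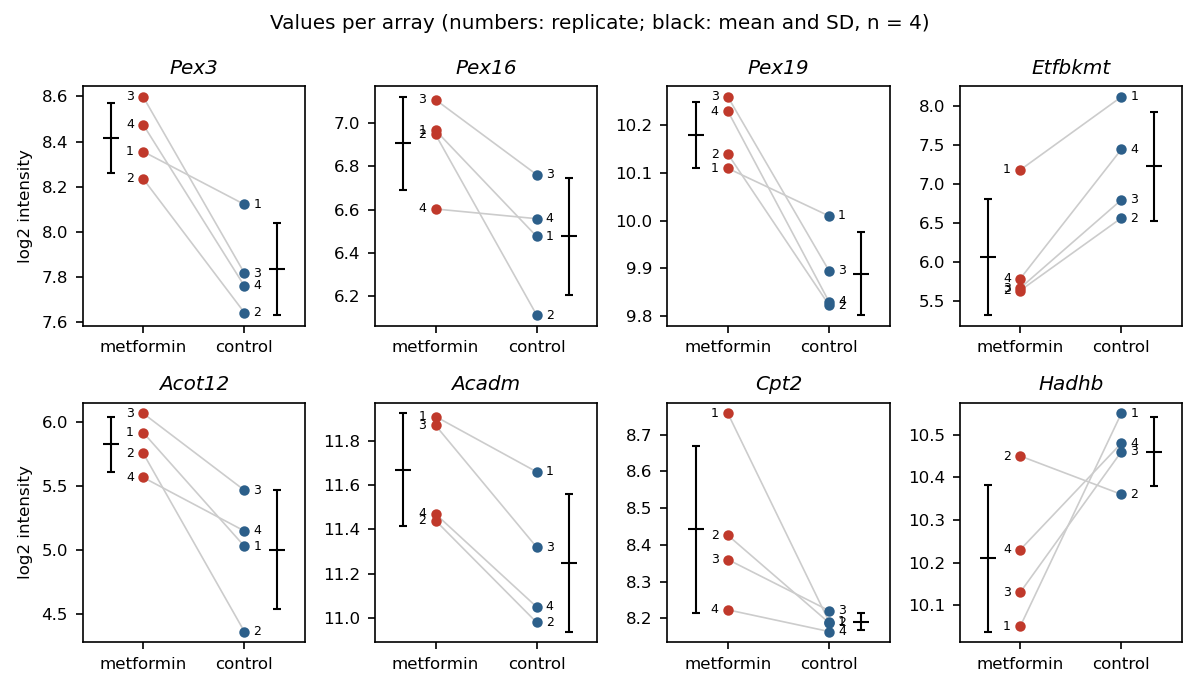
Log2 intensity in each array for 8 members, metformin samples left and control samples right, with grey lines between equal replicate numbers and black bars for the mean and SD (n = 4). Pex3, Pex19, Acot12 and Cpt2 have no overlap between the groups. For Etfbkmt, Acadm and Pex16 every line runs the same way although the groups overlap.

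The promoters of the genes called in either fit follow with that of Acadm, a classic PPARA target, as the 250 bases before the RefSeq start in GRCm38.p6, on the gene's strand. Pex3 lies at chr10:13553143-13553392 (minus strand), Etfbkmt at chr6:149141263-149141512 (plus), Acot12 at chr13:91741271-91741520 (plus) and Acadm at chr3:153944644-153944893 (minus). Capitals mark AGGTCA, the core motif of PPARA and other nuclear receptors, on either strand.
Pex3: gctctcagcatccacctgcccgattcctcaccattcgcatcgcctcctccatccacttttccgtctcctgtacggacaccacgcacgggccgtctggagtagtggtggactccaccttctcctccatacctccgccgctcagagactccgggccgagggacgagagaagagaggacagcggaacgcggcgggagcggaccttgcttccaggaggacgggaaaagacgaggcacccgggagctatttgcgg
Etfbkmt: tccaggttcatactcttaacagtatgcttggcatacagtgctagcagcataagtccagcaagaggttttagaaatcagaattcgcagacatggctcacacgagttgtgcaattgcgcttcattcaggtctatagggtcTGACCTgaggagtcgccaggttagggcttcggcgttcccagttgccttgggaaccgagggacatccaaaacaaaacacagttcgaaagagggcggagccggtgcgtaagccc
Acot12: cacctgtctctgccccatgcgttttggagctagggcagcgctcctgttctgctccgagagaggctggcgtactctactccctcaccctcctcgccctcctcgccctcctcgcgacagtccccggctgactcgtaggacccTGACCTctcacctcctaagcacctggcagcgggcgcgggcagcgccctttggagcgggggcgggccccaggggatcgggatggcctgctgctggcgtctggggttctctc
Acadm: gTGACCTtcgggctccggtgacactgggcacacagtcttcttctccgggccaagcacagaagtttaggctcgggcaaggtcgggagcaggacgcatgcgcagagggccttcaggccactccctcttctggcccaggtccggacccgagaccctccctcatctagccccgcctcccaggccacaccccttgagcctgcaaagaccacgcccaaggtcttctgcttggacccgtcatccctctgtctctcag
The core motif stood in the Etfbkmt, Acot12 and Acadm windows and not in that of Pex3. It was found for 7 of the 47 members with a promoter entry and in 14% of all 32851 promoter windows of that length. The strict direct repeat of that core with 1 free base between the copies, known as the PPAR response element, was in 0 of the 47 and in 0.0335% of all windows. The CCAAT box was in 21 of the 47 and in 40.1% of the 8909 measured genes with an entry. These motifs were chosen after the values were seen, overlaps between them were allowed, and a match is a description of letters only.

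Samples of the same number shared a pattern across these genes. In 19 of the 56 members replicate 1 was the highest array of both groups, against 10.7% of all genes. This held for 10 of the 24 mitochondrial members, 4 of the 14 peroxisomal enzymes and 5 of the 13 peroxins. The median deviation of the mitochondrial members from their 8-array means was 0.182, -0.023, -0.026 and -0.088 in metformin samples 1 to 4, and 0.147, -0.071, 0.103 and -0.144 in control samples 1 to 4. Thus replicate 1 was highest and replicate 4 lowest in both groups, and the groups overlapped throughout. For the peroxisomal enzymes the medians were 0.071, 0.090, 0.270 and -0.179 with metformin and -0.015, -0.078, -0.0047 and -0.096 in control samples, where metformin replicate 4 was below every control sample. For the peroxins they were 0.160, 0.013, 0.152 and -0.089 with metformin and 0.067, -0.095, -0.143 and -0.126 in control samples, so that the groups overlapped through replicate 1 of control and replicates 2 and 4 of metformin.

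**Figure D3:**
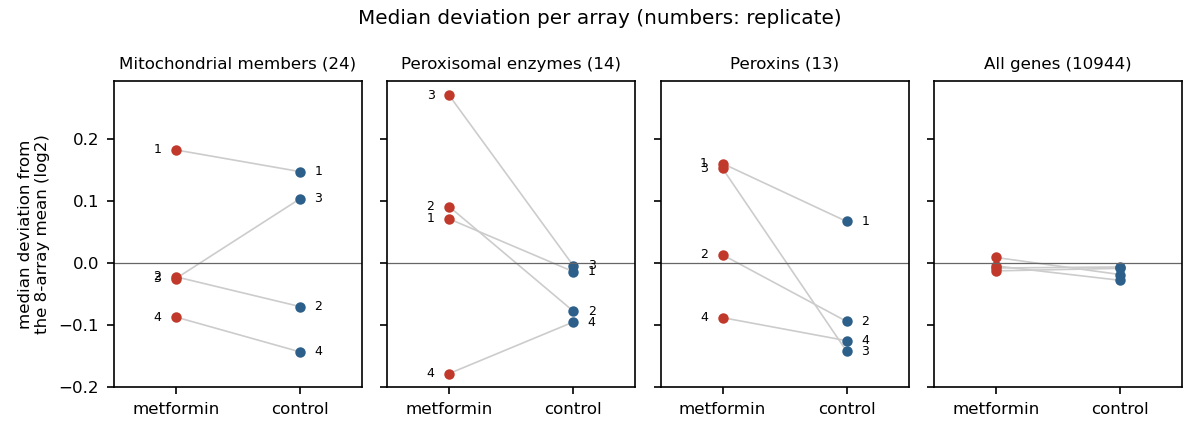
Median deviation from each gene's 8-array mean (log2) per array, metformin samples left and control samples right, for the mitochondrial members, peroxisomal enzymes, peroxins and all genes, with lines between equal replicate numbers. The mitochondrial medians were highest in replicate 1 (0.182 with metformin and 0.147 in control) and lowest in replicate 4 (-0.088 and -0.144), while replicate 3 differed in sign between the groups (-0.026 and 0.103).

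Markers of liver endothelium moved with the replicate number too. Of 10 endothelial markers, all measured, 7 were lowest in replicate 1 of both groups, and their summed linear intensity ran from 1.1 to 3.9 (in units of 1000) in metformin samples and from 1.03 to 2.26 in control samples. Their median change was 0.439, with 10 of 10 positive values, 0 past the limma threshold, 1 at an unadjusted p under 0.05 and 2 past it with the block. Of all genes 23.8% had an unadjusted p under 0.05, 6.76% passed in limma and 8.49% with the block. Macrophage markers (10 of 12 measured) summed to 2.65 to 4.45 in metformin samples against 3.04 to 5.27 in control samples, with a median change of -0.292, 1 of 10 positive, 0 past the threshold and 2 lower past it with the block. Stellate and fibroblast markers (8 of 9) summed to 2.54 to 4.82 against 2.41 to 4.39, with a median of 0.065, 5 of 8 positive and 0 past it in either fit. Biliary markers (3 of 5) summed to 0.515 to 1.06 against 0.366 to 0.693, with a median of 0.913, 3 of 3 positive, 0 past it and 1 past it with the block. Hepatocyte markers (11 of 13) summed to 27.1 to 35.7 against 24.9 to 32.9. Of these 11, 6 had positive changes (median 0.045), 0 passed and 3 had an unadjusted p under 0.05 (1 higher and 2 lower). Ttr, a plasma transport protein, averaged 13.68 and 13.64 in metformin and control samples, while the probe of Alb (albumin) averaged 6.05 and 5.65, below the middle of the array. Of the 3 markers with an unadjusted p under 0.05, the 2 lower ones were Arg1, the arginase of the urea cycle, and Tdo2, which degrades tryptophan. They differed by -0.76 ± 0.23 and -0.75 ± 0.32 (limma adjusted p = 0.0761 and 0.198). The 1 higher marker was Serpina1c, at 0.39 ± 0.17 (limma adjusted p = 0.202). The hepatocyte markers named here were chosen after their values were seen. The part of other cells in the members' values was not tested, and fewer cells of a type and less RNA per cell cannot be told apart in these bulk samples.

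Beyond the members, 57 other genes were measured on 4 lists, of which 20 were regulators and targets of PPARA and the others genes of fatty acid oxidation, ketone bodies and peroxisomes. Of the 57, 4 rose and 1 fell, where 3.32% of all genes were called higher and 3.44% lower. On the list of other peroxisomal proteins 3 of 23 rose and 0 fell, with a median change of 0.039, against the same shares. Lonp2, the protease of the peroxisomal matrix, read 10.04, 10.07, 9.96 and 9.60 in metformin samples and 9.35, 9.16, 9.24 and 9.13 in control samples. The groups did not overlap, and Lonp2 rose by 0.70 ± 0.13 (limma adjusted p = 0.0199), passing in 3 of the 8 fits without 1 array (adjusted p up to 0.0693). Nudt7, a peroxisomal hydrolase of coenzyme A and acyl-CoA, rose by 0.68 ± 0.16 (adjusted p = 0.0377; 2 of 8 fits, up to 0.115), again without overlap. Abcd4, listed by its family of peroxisomal transporters but known for cobalamin export from lysosomes, rose by 0.89 ± 0.17 (adjusted p = 0.0224; 4 of 8 fits, up to 0.0740), with 0.16 at its other probe. With the mean of both probes the change of Abcd4 was 0.52, and it did not pass (limma adjusted p = 0.156). Pxmp2, a channel of the peroxisomal membrane chosen after its values were seen, fell by 0.88 ± 0.22 with the block (adjusted p = 0.0497, against 0.0706 without it).

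On the list of PPARA regulators and targets 1 of 20 rose and 1 fell, with a median of 0.126, where 6.76% of all genes were called in either direction. Angptl4, an inhibitor of lipoprotein lipase, read 10.14, 9.34, 9.03 and 10.07 in metformin samples and 10.85, 11.21, 11.10 and 11.12 in control samples, a fall by 1.43 ± 0.24 (limma adjusted p = 0.0145) without overlap. Creb3l3, a liver transcription factor active in fasting, rose by 1.29 ± 0.30 (adjusted p = 0.0374), with overlap in replicate 4 and an adjusted p = 0.0515 with the block, and it passed in 2 of the 8 fits without 1 array. Ppara itself differed by 0.11 ± 0.14. Its only probe averaged 4.77 and 4.66 in metformin and control samples, near the lower end of the scale at 4.16, so this value says little. The PPARA coactivator Ppargc1a differed by 0.15 ± 0.35 and the pyruvate dehydrogenase kinase Pdk4 by -0.044 ± 0.20. The fatty acid hydroxylase Cyp4a14 differed by 0.32 ± 0.33 and the lipid droplet protein Plin2 by -0.43 ± 0.13 (limma adjusted p = 0.0761). On the list of other mitochondrial oxidation genes 0 of 11 were called by limma (median -0.098). The unadjusted p was under 0.05 for 3 of them, where 23.8% of all genes had such a p. Of 3 ketone body genes limma called 0, and the unadjusted p was under 0.05 for 1, against the same share. This was Bdh2, a hydroxybutyrate dehydrogenase chosen after its values were seen. Bdh2 rose by 0.71 ± 0.17 with the block (limma adjusted p = 0.0490, against 0.0829 without it). Cpt1a and Fgf21 were not analysed here.

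**Figure D4:**
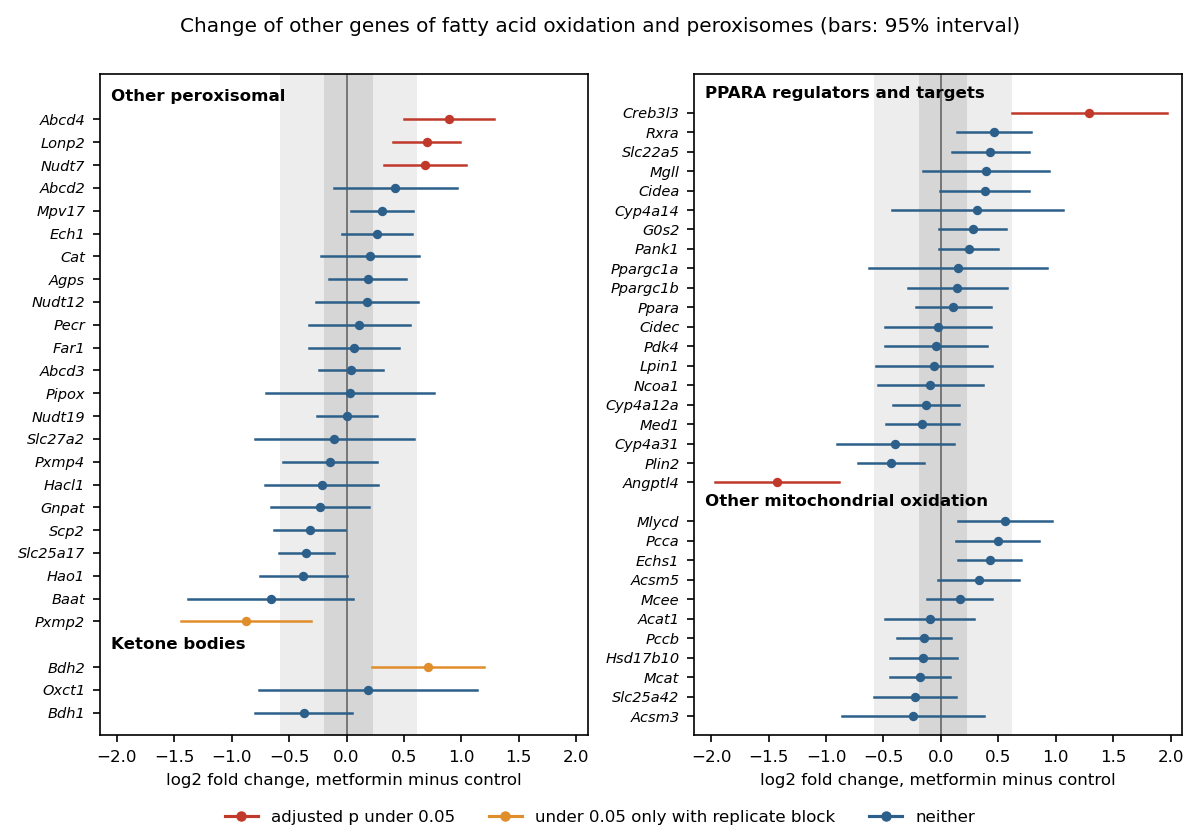
Log2 fold change (metformin minus control) of 57 other genes, namely listed genes of fatty acid oxidation, ketone bodies and peroxisomes and 20 regulators and targets of PPARA, with limma's 95% intervals as bars, n = 4 arrays per group, and grey bands for the middle of all genes as in the plot of the members. Abcd4, Lonp2, Nudt7 and Creb3l3 lie to the right of 0 and Angptl4 to the left past the threshold.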

How the data were processed

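The values were log2 intensities of a mouse Illumina bead array, deposited by the authors as 1 table of 16304 probes in 8 arrays. The tools named per the submitters' processing notes are R 3.2.3 and limma 3.26.9, without their role. Background correction, normalization and any probe filter are not given in the sources used here. Arrays had nearly equal distributions (median 6.48 in each) and were not normalized further. Detection calls were not used, so the margin of dim probes over background is not known, and 21 of the 56 members averaged below the array median. Among them Acot2, Acot5, Acot6, Decr1, Eci3, Pex10 and Pex13 stood near the lower end of the scale at 4.16. Precision is limited by the number of arrays.

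Gene names came from the platform annotation, with symbols updated by Entrez number from RefSeq (GRCm38.p6): 15301 had 1 gene and 1003 are unnamed here. Each of 10944 genes was represented by its brightest probe; 26 members had several probes, and those of 14 differed in sign. The compartments were assigned from general knowledge. A linear model (limma 3.58.1, R 4.3.3, lmFit and eBayes) compared metformin with control over all genes, with Benjamini-Hochberg adjustment and a threshold of 0.05, and was tested on simulated data. Exact permutation tests used all 70 splits of the arrays.

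Deviations of same-numbered samples from their group means correlated at 0.32, 0.284, 0.149 and 0.228 across genes, each over 0.1, so equal numbers were treated as pairs. Of the 12 unequal pairs metformin replicate 4 with control replicate 2 was also over 0.1, at 0.139. The pairing rests on the values, since no label explains the numbering. The alternatives were the replicate block, each array left out, the mean of a gene's probes, every probe as a feature, an offset of 16, quantile normalization, the lowest 25% of genes left out, and array weights. With every probe as a feature, each gene took the value of its probe with the lowest adjusted p, which was often not the brightest.

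The members named were those called in either fit, the highest and lowest of each role and a list of core genes; outside the members, listed genes past the threshold and listed regulators were named. The remaining members, Pxmp2, Bdh2 and 4 hepatocyte markers were named beyond that rule. Echs1 and the hepatocyte marker Serpina1c were also named beyond it, but are not among the 72 named genes of the closing sections. Promoters and motifs were chosen after the values were seen, with sequences from RefSeq (GRCm38.p6). Members and lists were chosen with earlier results of these data known.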

Additional observations from a re-analysis of the deposited data

Results flagged for a closer look

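In groups of 4 samples, 7 of the 144 groups of the named genes (72 genes in 2 conditions) held a sample far from the other 3 by Dixon's test, where chance flags about 5% of groups. Replicate 1 stood high for Etfbkmt in metformin samples (7.18, against 5.63 to 5.79 in the others), for Acadl in metformin samples (9.45, against 9.24 to 9.28) and for Hsd17b4 in control samples (10.75, against 10.56 to 10.58). Metformin replicate 4 stood high for Pex10 (5.57, against 4.365 to 4.54), and it stood low for Acad12 (5.40, against 5.85 to 5.94), Pex7 (7.61, against 8.17 to 8.19) and Nudt7 (9.76, against 10.24 to 10.28).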

How the results depend on the processing

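The calls among the members depended on the fit. Of the members 1 was past the threshold, but 3 with the replicate block, 3 with array weights (Pex3, Acad12 and Acot2), 2 without the lowest 25% of genes, 0 with the mean of the probes, and 0 to 2 when 1 array was left out. It was 0 in 6 of those 8 fits, in which replicate 2, 3 or 4 of metformin or of control was missing, and each held fewer samples. For mitochondrial members the count was 0, but 1 with the replicate block (Etfbkmt), 2 with array weights and 0 to 2 without 1 array: Acad12 without control replicate 1, and Etfbkmt and Acot10 without metformin replicate 1. For peroxisomal enzymes and peroxins it was 1, but 0 with the mean of the probes and 0 to 1 without 1 array. Over all genes 740 passed, against 1189 with array weights and 174 to 794 without 1 array. Of the 56 members 6 passed in any of the fits, and the offset, the repeated quantile normalization and every probe as a feature called Pex3 alone, as without them. The block changed no call of a named gene other than those of Etfbkmt, Acot12, Creb3l3, Pxmp2 and Bdh2.

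Over the 72 named genes signs turned for uncalled changes alone. With array weights these were Acaa1b (0.048), Acad9 (-0.041), Acadl (-0.0082), Acads (-0.025), Acot4 (0.019), Acot8 (0.049) and Crat (-0.018), with the mean of the probes Acad9 (-0.062), Acads (-0.0068), Acot8 (0.010), Etfdh (-0.013), Pex2 (0.102), Pex11a (-0.060) and Slc25a20 (-0.145), and with every probe as a feature Acad9 (-0.136), Acads (-0.023), Pex2 (0.313), Pex11a (-0.163) and Slc25a20 (-0.353). Without 1 array the change ran from -0.29 to 0.158 for Acaa1b, -0.068 to 0.247 for Acaa2, -0.062 to 0.115 for Acad9, -0.032 to 0.038 for Acadl, -0.084 to 0.159 for Acads, -0.192 to 0.131 for Acot4, -0.085 to 0.047 for Acot8, -0.0079 to 0.376 for Acot11, -0.186 to 0.061 for Acox3, -0.091 to 0.193 for Crat, -0.133 to 0.034 for Hsd17b4, -0.083 to 0.319 for Pex10, -0.086 to 0.216 for Pex11a, -0.276 to 0.181 for Pex11g, -0.078 to 0.208 for Slc25a20, -0.185 to 0.387 for Ppargc1a, -0.175 to 0.096 for Pdk4 and -0.031 to 0.149 for Ttr. The cause was not tested.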
